A study of Mus musculus with 6 samples.

Results

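The BCL2 family decides whether a cell keeps its mitochondrial outer membrane intact or lets it leak, which is the commitment step of the intrinsic death pathway. The 10 genes described here were chosen by name: the survival members Bcl2, Bcl2l1 and Mcl1, the pore-forming members Bax, Bak1 and Bok, and the BH3-only members Bid, Bcl2l11, Bbc3 and Pmaip1. All 10 were matched by Ensembl identifier to GENCODE M21 among 49671 gene rows. All 10 passed the filter on low counts that left 18040 genes for testing. The counted span of Pmaip1 does not have the same ends as its GENCODE M21 gene. The effect on its count and length was not tested. The RNA came from whole testis at 12 days post-partum, strain C57BL/6J, with 3 wild-type (Ankrd31+/+) and 3 knockout (Ankrd31-/-) animals, and no treatment is named. Ankrd31 encodes an ankyrin-repeat partner of the machinery that makes meiotic DNA double-strand breaks. The labels do not say how the allele was made, whether the groups were littermates or what a replicate number marks. P-values therefore rest on the spread between these 3 animals a group, estimated with information shared over all tested genes. With the replicate number as a block, they rest on the spread left after that number is taken out. In whole tissue, a change in the number of cells of a type and a change in RNA per cell cannot be told apart.

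Survival members hold the pore formers in check by binding them and the BH3-only proteins in a surface groove. BH3-only proteins are the sensors: when induced or activated they occupy that groove or engage the pore formers directly, and oligomers of BAX or BAK then release cytochrome c, which starts caspase activation through APAF1. In the juvenile testis an early wave of germ cell death, which depends on Bax, adjusts germ cell number to the Sertoli cells, and spermatocytes with defects in recombination are removed at a later meiotic checkpoint.

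The feature that unites the family is the BH3 helix, shown here as its coding DNA to give its place in each gene. Each member's longest complete coding sequence in GENCODE M21 (mm10) was searched, after translation, for a core of leucine, any 3 residues, glycine or alanine, and aspartate. All 10 members held it, once each except in Pmaip1, which held it 2 times. The core alone is not specific, since 5157 of 21546 coding sequences (23.9%) contain a match. The 9 stretches below run 5′ to 3′ on the coding strand, with the 18 core bases in capitals and 12 bases on each side. Survival members come first, then pore formers, then BH3-only members.
Bcl2: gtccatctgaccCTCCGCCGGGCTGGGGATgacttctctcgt
Bcl2l1: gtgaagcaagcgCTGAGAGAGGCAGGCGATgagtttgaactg
Mcl1: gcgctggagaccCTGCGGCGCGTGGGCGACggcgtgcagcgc
Bax: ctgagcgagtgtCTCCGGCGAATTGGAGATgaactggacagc
Bak1: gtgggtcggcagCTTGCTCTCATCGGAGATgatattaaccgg
Bok: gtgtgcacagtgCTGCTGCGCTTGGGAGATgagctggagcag
Bid: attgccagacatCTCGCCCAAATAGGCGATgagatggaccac
Bcl2l11: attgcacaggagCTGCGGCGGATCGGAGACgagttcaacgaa
Bbc3: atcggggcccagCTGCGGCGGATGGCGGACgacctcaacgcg
In all 9 the capitals open with a leucine codon and close with an aspartate codon, as the search required. Bbc3 is the one among them with an alanine codon before the aspartate, where the other 8 have glycine. All of these bases are exonic and coding. The stretches lie at chr1:106712572-106712613 (minus strand, exon 1 of 2) for Bcl2, chr2:152829694-152829735 (minus, exon 2 of 3) for Bcl2l1 and chr3:95659424-95659465 (plus, exon 1 of 3) for Mcl1. For the pore formers they lie at chr7:45465994-45466035 (minus, exon 3 of 6) for Bax and chr17:27022528-27022569 (minus, exon 4 of 6) for Bak1. The stretch of Bok is split by an intron between exons 2 and 3 of 5, within chr1:93686645-93689173 (plus). For the BH3-only members they lie at chr6:120897286-120897327 (minus, exon 4 of 6) for Bid, chr2:128147138-128147179 (plus, exon 3 of 4) for Bcl2l11 and chr7:16313761-16313802 (plus, exon 3 of 4) for Bbc3. Counts cover whole genes, so splice forms with opposite effects, such as the long and short forms of Bcl2l1, were summed.

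Libraries held 21014060 to 22706296 counts. Ankrd31 stood at 66.8 ± 16.6 CPM (normalised counts relative to library size; SD, n = 3) in wild type and 37.3 ± 3.89 CPM in knockout testes, with no overlap between the groups. It did not pass in edgeR without a replicate block (adjusted p = 1) and passed with it (adjusted p = 0.00505). As the labels do not say how the allele was made, RNA from it may still be counted. The level of Ankrd31 thus checks the labels only in part. Germ cell markers were present (8 of 8 tested, summed level 1919 to 2854 CPM in wild type and 2208 to 2831 in knockout), as were those of Sertoli cells (7 of 7; 1769 to 2090 and 1742 to 1939 CPM). Epididymis and rete markers reached 58.8 CPM in wild-type replicate 3 against at most 7.70 CPM elsewhere, Leydig markers ran from 426 CPM in knockout replicate 3 to 956 CPM in knockout replicate 2, and 0 of the 54 markers in 8 lists were at 0 in all libraries.

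The juvenile testis expressed survival and death-promoting members side by side, over a 59.6-fold span of wild-type levels (the plot of levels per exon length). Levels between genes are compared here as CPM per kilobase of summed exon length. Mcl1, a short-lived survival protein, stood highest at 71.6 ± 2.61 in wild type (SD, n = 3), above 96.3% of tested genes. Bok, a pore former that can act without BAX or BAK, followed at 37.2 ± 11.05, and Bax at 30.6 ± 1.40; the wild-type ranges of these pore formers overlapped. Bcl2l1, which encodes BCL-XL, stood at 19.4 ± 0.117. Bid, whose product is cut by caspase-8 and so links death receptors to mitochondria, stood at 9.90 ± 0.240 and Bak1 at 8.58 ± 1.09, and their ranges overlapped too. Bcl2l11 (BIM) at 5.52 ± 0.657 and Pmaip1 (NOXA) at 4.42 ± 0.930 overlapped likewise. Bbc3 (PUMA) at 2.67 ± 0.360 and Bcl2, the founding member, at 1.20 ± 0.274 were lowest, each apart from its neighbours. Bcl2 lay above 22.5% of tested genes. The order was the same in the knockout testes.

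**Figure D1:**
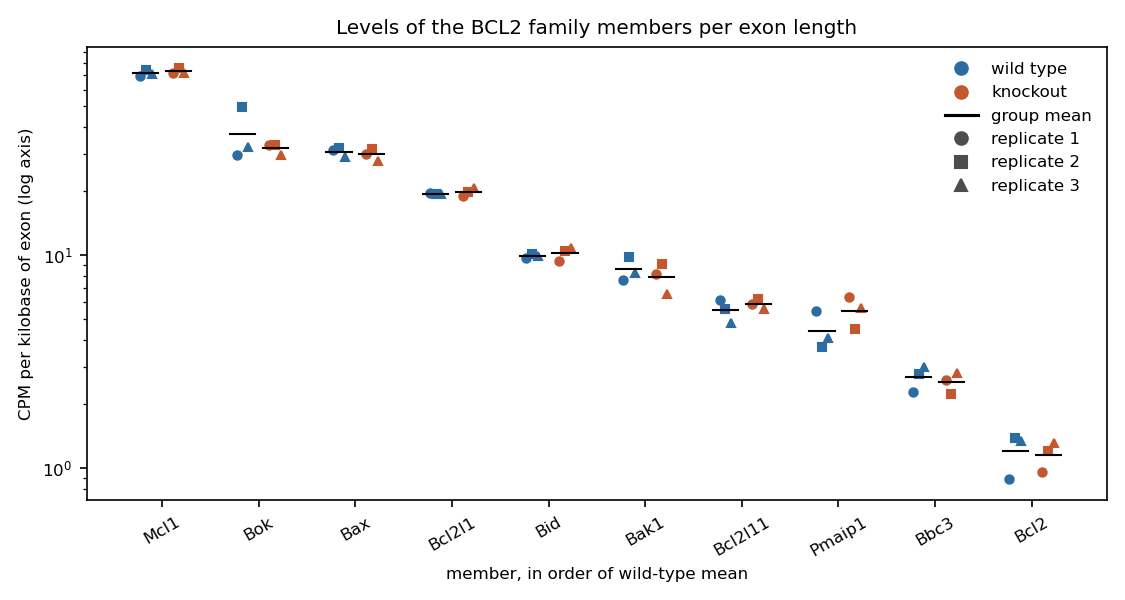
Level of each member in CPM per kilobase of exon on a log axis, for 3 wild-type (blue) and 3 knockout (orange) libraries, with the marker shape giving the replicate number and a line at each group mean. Mcl1 is highest and Bcl2 lowest in both genotypes, and wild-type replicate 2 stands above the other libraries for Bok.

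Mcl1 made up 77.6 ± 0.483% (SD, n = 3) of the summed survival level per kilobase in wild-type and 77.7 ± 0.988% in knockout testes. The sums in CPM per kilobase were 92.2 ± 2.79 and 94.1 ± 2.86 for the survival members, 76.3 ± 13.04 and 69.4 ± 5.10 for the pore formers, and 22.5 ± 0.913 and 24.1 ± 0.707 for the BH3-only members, in wild type and knockout respectively. Each of these sums overlapped between the genotypes. Within same-number pairs 1, 2 and 3 the knockout stood at 1.03, 1.05 and 1.14 times the wild-type sum for the BH3-only members and at 1.02 times in each pair for the survival members. For the pore formers it stood at 1.04, 0.806 and 0.919 times. In pair 2, Bok had 49.8 CPM per kilobase in wild type and 33.0 in knockout, beside 31.8 and 31.6 for Bax and 9.79 and 9.05 for Bak1. No test was made of these sums.

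No member passed the test between the genotypes after adjustment. Ankrd31 did not pass without the block either, so the lack of a call does not show that a member was unchanged. In edgeR's quasi-likelihood test, 0 of the 10 members passed an adjusted p of 0.05, as did 0 of all 18040 tested genes (0%), and each member had an adjusted p of 1. At an unadjusted p under 0.05 there were 0 members and 374 genes (2.07%). By DESeq2, 0 members and 2 of all genes passed an adjusted p of 0.05. At an unadjusted DESeq2 p under 0.05 there were 0 members and 242 genes (1.34%). With the replicate number as a block 0 members passed, against 8 of all genes (0.0443%). Of the 10 members, 5 had a higher and 5 a lower fitted value in the knockout, with a median log2 fold change of -0.006 beside -0.005 for all tested genes; the median size regardless of sign was 0.06 beside 0.07. For 0 of the 10 did the knockout libraries lie wholly above or wholly below the wild-type libraries, where the groups of 6.59% of all tested genes did not overlap. The direction was the same in all 3 same-number pairs for 3 of the 10 (Mcl1, Bax and Pmaip1), beside 28.6% of all tested genes. For 8 members the 95% interval of the fold change stayed within 1.5-fold in either direction; the exceptions were Bok and Pmaip1 (the plot of genotype differences).

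**Figure D2:**
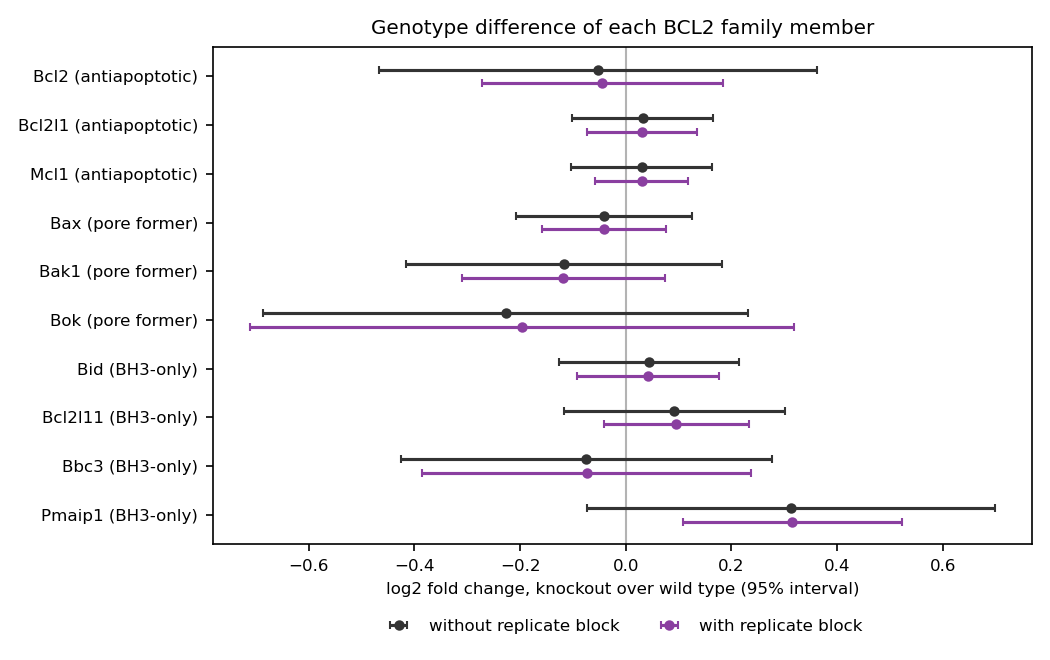
Log2 fold change of each member, knockout over wild type, with its 95% interval from edgeR, without (black) and with (purple) the replicate number as a block. All unblocked intervals include 0, and with the block the interval of Pmaip1 runs from 0.11 to 0.52.

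Among survival members, Bcl2l1 had the narrowest spread over the wild-type libraries but not over the knockout libraries. Its coefficient of variation was 0.602% and 4.22%, beside 3.65% and 3.52% for Mcl1. Whether its spread differs from counting noise was not tested. In the order of replicates 1, 2 and 3, which all such values follow, it measured 89.7, 89.1 and 88.6 CPM in wild-type and 87.2, 91.3 and 94.9 CPM in knockout testes. The wild-type values sit close together inside the knockout range. Its log2 fold change was 0.03 ± 0.06 (SE), and the 95% interval of the fold ran from 0.932 to 1.12.

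Mcl1 measured 237, 254 and 243 CPM in wild-type and 244, 259.9 and 245 CPM in knockout testes. Replicate 2 was the highest library of each genotype, and the groups overlapped. The log2 fold change was 0.03 ± 0.06, with a fold interval of 0.931 to 1.12, although the knockout was higher in 3 of 3 same-number pairs, by 0.05, 0.03 and 0.01 on the log2 scale.

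Bcl2 measured 8.10, 12.6 and 12.3 CPM in wild-type and 8.74, 11.03 and 12.0 CPM in knockout testes. Replicate 1 was the lowest library of both genotypes, with the other 4 between 11.03 and 12.6 CPM. The log2 fold change was -0.05 ± 0.18, with a fold interval of 0.723 to 1.29. Antisense and other genes that overlap Bcl2 were at 0.0458 CPM or less. Their effect on the count of Bcl2 was not tested.

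The pore formers Bax and Bak1 also overlapped between genotypes. Bax, which is needed for germ cell death in the first wave, measured 48.9, 50.0 and 45.8 CPM in wild-type and 47.3, 49.7 and 43.7 CPM in knockout testes. The knockout was lower in 3 of 3 pairs by at most 0.07 on the log2 scale, and the log2 fold change was -0.04 ± 0.08, with a fold interval of 0.866 to 1.09. Bak1, its membrane-resident counterpart, measured 18.5, 23.6 and 19.9 CPM in wild-type and 19.5, 21.8 and 15.8 CPM in knockout testes. Wild-type replicate 2 was its highest library and knockout replicate 3 its lowest. The log2 fold change of Bak1 was -0.12 ± 0.13, with a fold interval of 0.749 to 1.14. Ggnbp1, on the opposite strand and overlapping Bak1, had 4.17 to 6.73 CPM. As the strand setting of the counting is not given in the sources used here, its share in the count of Bak1 was not tested. Gm45808, a protein-coding gene on the same strand and overlapping Bax, had 0 CPM in every library. Its effect on the count of Bax was not tested either.

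Bok had the most uneven wild-type values. It measured 54.4, 91.7 and 59.0 CPM in wild-type and 60.3, 60.8 and 54.2 CPM in knockout testes. Wild-type replicate 2 stood 1.51 times above the next library, while the other 5 libraries lay within 54.2 to 60.8 CPM (the plot of members by library). Its log2 fold change was -0.23 ± 0.19, with a fold interval of 0.622 to 1.17, and without wild-type replicate 2 it was 0.04. A criterion chosen after this value was seen, wild-type replicate 2 at 1.5 times the next library or more, was met by 57 of 18040 tested genes (0.316%). The genes with the nearest profiles over the 6 libraries, by root mean square difference of centred log2 CPM, were AW551984 (0.03), Bsn (0.06) and Trim62 (0.06). Bsn encodes a presynaptic scaffold protein, and the profile of Bok itself varied by 0.26 on that scale. In the same library the summed Sertoli markers were highest of all (2090 CPM, with 5 of 7 markers highest there), the germ cell markers lowest (1919 CPM, with 6 of 8 lowest there) and the red blood cell markers highest (95.4 CPM against 59.2 to 68.7 CPM elsewhere). Their part in the value of Bok was not tested.

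**Figure D3:**
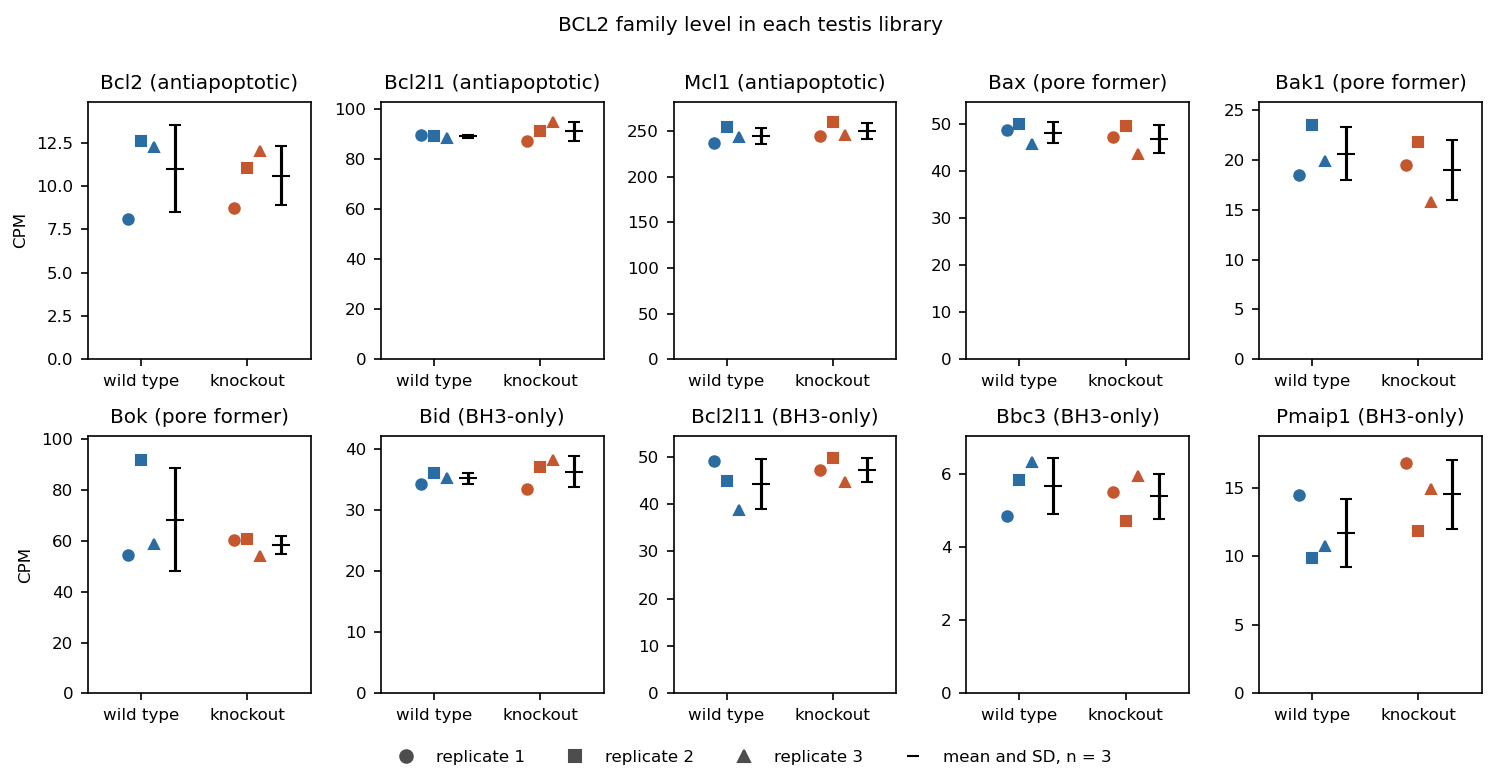
CPM of each member in every library, with wild type in blue, knockout in orange, marker shape for the replicate number, and a bar at the mean with its SD (n = 3). The groups overlap in all 10 panels, and the wild-type replicate 2 value of Bok, 91.7 CPM, stands apart from the other 5.

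Of the BH3-only members, Pmaip1 had the largest genotype difference in the family, without passing. NOXA, its product, is a p53-inducible protein that binds MCL1 and promotes its degradation. Pmaip1 measured 14.5, 9.85 and 10.7 CPM in wild-type and 16.8, 11.9 and 14.9 CPM in knockout testes. Replicate 1 was the highest library of each genotype, and wild-type replicate 1 lay above knockout replicate 2, so the groups overlapped. Within same-number pairs the knockout was higher in 3 of 3, by 0.21, 0.27 and 0.47 on the log2 scale, as for 13.9% of all tested genes. The group means were 11.7 ± 2.46 and 14.5 ± 2.49 CPM (SD, n = 3). The log2 fold change was 0.31 ± 0.17 (SE), with a fold interval of 0.950 to 1.62 and an unadjusted edgeR p of 0.101. With the replicate block it was 0.32 ± 0.10, with an unadjusted edgeR p of 0.00605 and an adjusted p of 0.494, and Pmaip1 was 1 of 10 members at an unadjusted p under 0.05 in that fit, where 7.48% of all tested genes were. The profiles nearest to that of Pmaip1 were those of Derl3 (root mean square difference 0.05), which acts in the disposal of misfolded endoplasmic reticulum proteins, the ciliary gene Rpgr (0.05) and Inca1 (0.05), against a spread of 0.27 for Pmaip1 itself. The germ cell marker sum was likewise highest in replicate 1 of each genotype (2854 and 2831 CPM against 1919 to 2448 CPM), and its part in the level of Pmaip1 was not tested.

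Bbc3, another p53-inducible sensor of the set, did not share the fitted direction of Pmaip1. It measured 4.84, 5.85 and 6.34 CPM in wild-type and 5.51, 4.72 and 5.95 CPM in knockout testes. The knockout was higher in pair 1 by 0.18 and lower in pairs 2 and 3, by -0.31 and -0.09. Its log2 fold change was -0.07 ± 0.16, with a fold interval of 0.745 to 1.21. The difference between the fold changes of Bbc3 and Pmaip1 was not tested.

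Bcl2l11, whose product BIM binds all survival members, measured 49.2, 44.9 and 38.7 CPM in wild-type and 47.1, 49.9 and 44.6 CPM in knockout testes. Its lowest value was wild-type replicate 3, and the groups overlapped. The log2 fold change was 0.09 ± 0.09, with a fold interval of 0.922 to 1.23. Bid measured 34.3, 36.0 and 35.2 CPM in wild-type and 33.5, 37.1 and 38.2 CPM in knockout testes. As for Bcl2l1, the wild-type values lay inside the knockout range. The log2 fold change of Bid was 0.04 ± 0.08, with a fold interval of 0.916 to 1.16. Bcl2l13, on the opposite strand and overlapping Bid, had 80.2 to 87.8 CPM, so the count of Bid is uncertain if strand was not used in counting.

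Among ratios between opposing members, that of Bax to Bcl2 was highest in replicate 1 of both genotypes. The ratio of Bax to Bcl2 per kilobase was 35.1, 23.04 and 21.7 in wild-type and 31.4, 26.2 and 21.1 in knockout testes (the plot of ratios). The means of 26.6 ± 7.36 and 26.2 ± 5.15 (SD, n = 3) overlapped. Their size rests on summed exon lengths of 1576 bases for Bax and 9157 for Bcl2. The sum of the 7 death-promoting members over the 3 survival members was 1.02, 1.19 and 0.993 in wild-type and 1.04, 0.998 and 0.945 in knockout testes. The highest value, again in wild-type replicate 2, goes with the Bok level there. Pmaip1 over Mcl1, a ligand over its main target, was 0.0621 ± 0.0152 in wild type and 0.0754 ± 0.0152 in knockout testes, with overlap. This ratio was higher in the knockout in 3 of 3 same-number pairs, at 1.12, 1.18 and 1.38 times the wild-type value. Pmaip1 by itself was also higher in all 3 pairs, as were 13.9% of all tested genes, so the ratio adds no separate direction. Bcl2l11 over Bcl2l1, another ligand over a survival member, was higher in the knockout in 2 of 3 pairs, and its groups overlapped too. No test was made of these ratios, since the members were chosen with earlier results known.

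**Figure D4:**
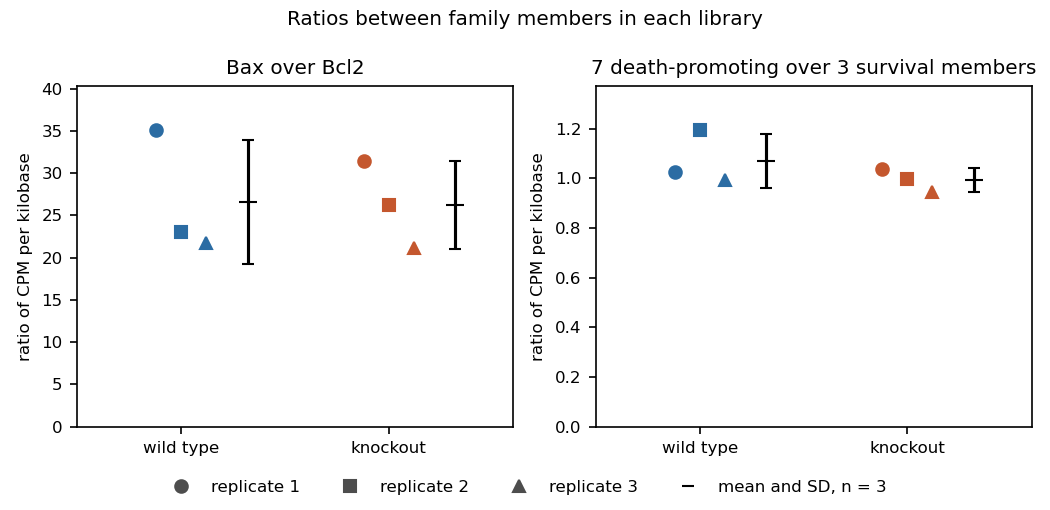
Ratio of Bax to Bcl2 (left) and of the 7 death-promoting to the 3 survival members (right), from CPM per kilobase, in each library, with mean and SD (n = 3). Replicate 1 (circles) has the highest Bax to Bcl2 ratio in each genotype, at 35.1 and 31.4.

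No other BCL2 relative passed either. Of 15, 9 were tested, 0 passed with or without the block, 5 had a higher and 4 a lower fitted value, and the median log2 fold change was 0.03. Bnip3l, which marks mitochondria for autophagy, was the most abundant at 36.4 ± 1.38 CPM per kilobase in wild type. It measured 135, 142 and 145 CPM in wild-type and 151, 146 and 162 CPM in knockout testes. It was thus the 1 relative whose groups did not overlap (6.59% of all tested genes), with a log2 fold change of 0.12 ± 0.06. The knockout was higher in 3 of 3 same-number pairs, as for 13.9% of all tested genes. With the block, Bnip3l had an unadjusted edgeR p of 0.0181 and an adjusted p of 0.577. It was the 1 relative at an unadjusted p under 0.05 in that fit, where 7.48% of all tested genes were. Bcl2l2, which encodes the survival protein BCL-W needed for sperm production in adults, stood at 23.6 ± 1.07 CPM per kilobase in wild type, above Bcl2l1. Its log2 fold change was 0.07 ± 0.06. Bnip3, a close relative of Bnip3l, had 0.04 ± 0.11, and the BH3-only gene Bik had 0.20 ± 0.14. The remaining 6 relatives, Bcl2l10, Bcl2a1a, Bcl2a1b, Bcl2a1d, Bcl2l14 and Bcl2l15, had at most 4 counts in any library and were not tested. The Bcl2a1 copies are near-identical, so reads may have been lost or split between them.

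Downstream of the mitochondria, 19 of 19 genes of the apoptosome, caspases, their inhibitors and the outer membrane channels were tested and 0 passed with or without the block. Of these, 9 had a higher and 10 a lower fitted value, with a median log2 fold change of 0.00. Casp8, the initiator caspase that cleaves BID, had the smallest, an unadjusted edgeR p of 0.0431, and no other gene of the list was under 0.05, where 2.07% of all tested genes were. It measured 29.7, 28.8 and 29.5 CPM in wild-type and 36.5, 33.8 and 30.4 CPM in knockout testes. All knockout values lay above all wild-type values, as for 3.09% of tested genes. The log2 fold change was 0.19 ± 0.08 with an adjusted p of 1 (0.568 with the block). With the block the unadjusted edgeR p of Casp8 was 0.0167, where 7.48% of all tested genes were under 0.05. Casp2 had -0.09 ± 0.07 and the cytochrome c sensor Apaf1 0.09 ± 0.10. The voltage-dependent anion channel gene Vdac1 was the most abundant of the list at 71.7 CPM per kilobase in wild type, beside 34.6 for the caspase inhibitor gene Birc2 and 30.7 for Vdac2, which holds BAK at the membrane; their log2 fold changes were 0.03 ± 0.07, 0.04 ± 0.07 and 0.00 ± 0.08.

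Upstream, 16 of 16 regulators were tested and 0 passed with or without the block, with 8 higher and 8 lower fitted values and a median log2 fold change of 0.00. The smallest unadjusted p belonged to Trp63, the p53 relative that guards the germ line. It measured 3.03, 2.55 and 3.17 CPM in wild-type and 1.91, 1.74 and 3.20 CPM in knockout testes. Knockout replicate 3 was its highest library, so the groups overlapped, and the log2 fold change was -0.35 ± 0.25. The stress kinase gene Mapk8 had 0.08 ± 0.07 and Mdm4, a p53 inhibitor, -0.06 ± 0.06. Trp53 itself, named after its values were seen, had -0.04 ± 0.06. The most abundant were Kitl, the survival ligand that Sertoli cells supply to germ cells (64.1 CPM per kilobase in wild type), Foxo3 (40.8), whose product can induce Bcl2l11, and Usp9x (32.2), a deubiquitinase that stabilizes MCL1. Their log2 fold changes were -0.01 ± 0.13, 0.06 ± 0.08 and 0.07 ± 0.12.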

How the data were processed

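The deposited values are raw counts of reads per gene in 1 table for 6 libraries, whose kit keeps strand information per the labels' protocols; the authors had not normalized them. The submitters' processing notes name bcl2fastq 2.19.1, GSNAP, featureCounts 1.6.0 and mm10; settings for strand and multi-mapping reads are not given there. Per the file headers, another column gives the summed exon length in bases. Columns were joined to samples by title. The 92 spike-in rows (1 count in all) were left out, and 345 of 49671 gene rows, with 0.0311% of counts, had no GENCODE M21 symbol. No library repeated another of its group (chi-square 7.35 to 12.96 per degree of freedom).

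All genes were fitted with edgeR 4.0.16 under R 4.3.3: filterByExpr, TMM, robust quasi-likelihood, two-sided, Benjamini-Hochberg over 18040 genes, threshold 0.05. SE is the log2 fold change over the root of F. DESeq2 1.42.0 and limma 3.58.1 (voom) were alternatives, as were other scalings, no filter, and fits without single libraries or pairs. Pair ratios are of log2 CPM with a prior count of 2. Same-numbered libraries deviated together from their group means (correlations 0.42, 0.26 and 0.28, above the 0.1 taken to mark pairs), though the labels state no pairing. The members and lists were chosen with earlier results of these data known. Named were the 10 members, Ankrd31, of each list the passing genes, the 3 with the smallest p and the 3 most abundant, and the 3 profiles nearest to each of the 2 most variable members (mean CPM of at least 1).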

Additional observations from a re-analysis of the deposited data

How the results depend on the processing

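No member passed in any of the 16 alternative fits, whose smallest adjusted p for a member was 0.323 (Pmaip1). The fitted log2 fold change kept its sign in all 16 for Mcl1, Bid, Bcl2l11 and Pmaip1, the last at 0.20 to 0.50. The other 6 turned sign in 1 to 4 fits, each with a library or pair left out. The cause was not tested. With single libraries left out, Bcl2 ran from -0.230 to 0.0692, Bax from -0.0759 to 0.00842, Bak1 from -0.215 to 0.00220, Bok from -0.367 to 0.0439 and Bbc3 from -0.176 to 0.0223. The libraries whose omission turned the sign were wild-type replicates 2 and 3 and knockout replicate 1 for Bcl2, knockout replicate 3 for Bax and Bak1, wild-type replicate 2 for Bok, and wild-type replicate 3 and knockout replicate 2 for Bbc3. With the replicate block, omitting pair 2 gave 0.0362 for Bcl2, 0.0137 for Bok and 0.0414 for Bbc3 (lowest -0.108, -0.361 and -0.196 without another pair), and omitting pair 3 gave -0.00187 for Bcl2l1 (highest 0.0693). The replicate block changed no member's call. Over all genes it called 8, against 0 without it, 1 with no filter on low counts and 2 with DESeq2; leaving out pair 1, 2 or 3 under the block gave 63, 57 and 0 genes.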
